A study of Mus musculus with 48 samples.

Results

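Card9 is the adaptor protein through which C-type lectin receptors of myeloid cells signal, and 9 genes of this pathway were followed in mouse tumours removed before immunotherapy. The genes were chosen by symbol from a list of receptors (Clec4d, Clec4e, Clec4n, Clec7a and Trem1), the kinase Syk, Card9 and its partners Bcl10 and Malt1. All 9 were found among 39637 genes in the table. The list was put together with earlier results of these data in view, so the responder comparisons below are given as a description of the chosen genes. RNA was sequenced from 48 whole tumours grown under the skin of female BALB/c mice aged 8 to 9 weeks, 12 tumours in each of 4 groups. A pair of groups, responders and non-responders, carried AB1, a mesothelioma line, taken out on day 8. The other pair carried the kidney cancer line Renca, taken out on day 10. All 4 groups were sampled at the pretreatment time point, and each mouse was classed by its response to antibodies against CTLA4 and PD-L1. Each tumour model rests on 1 transplanted cell line, and every library holds RNA of tumour cells and host cells together.

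C-type lectin receptors on macrophages, dendritic cells and neutrophils bind sugars and lipids of microbes and of damaged cells. Dectin-1, made from Clec7a, carries its own signalling tail, whereas Mincle (Clec4e), Dectin-2 (Clec4n), the dectin-3 receptor (Clec4d) and Trem1 depend on the adaptors Fcer1g or Tyrobp. The tail or adaptor recruits the kinase Syk, protein kinase C delta then acts on Card9, and Card9 assembles with Bcl10 and the protease Malt1 to switch on NF-kappaB and cytokine genes. Trem1 is an immunoglobulin-like receptor of neutrophils and monocytes, not a lectin, and is listed with them because it feeds the same kinase.

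The promoters of 3 genes are shown to set the start region of Card9 beside those of Clec4e and Clec7a, receptor genes called higher in responders of both tumours. RefSeq promoter windows on GRCm38.p6 were found for 7 of the 9 genes. The 250 bases before the annotated start were searched on both strands for the PU.1 core GAGGAA, a C/EBP motif TTGCNNAA, an AP-1 motif TGANTCA and a kappaB motif. Of 32851 promoter windows of this length, 23.3% held the PU.1 core, 9.56% the C/EBP motif, 6.75% the AP-1 motif and 7.25% the kappaB motif. Each sequence runs 5′ to 3′ on the minus strand, which is the gene's strand, and capitals mark a motif match on either strand.
Card9, chr2:26360910-26361159: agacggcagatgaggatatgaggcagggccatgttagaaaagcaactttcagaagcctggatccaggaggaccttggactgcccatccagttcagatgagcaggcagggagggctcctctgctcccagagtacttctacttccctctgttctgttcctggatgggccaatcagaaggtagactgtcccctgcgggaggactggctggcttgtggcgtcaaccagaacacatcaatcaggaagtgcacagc
Clec4e, chr6:123289872-123290121: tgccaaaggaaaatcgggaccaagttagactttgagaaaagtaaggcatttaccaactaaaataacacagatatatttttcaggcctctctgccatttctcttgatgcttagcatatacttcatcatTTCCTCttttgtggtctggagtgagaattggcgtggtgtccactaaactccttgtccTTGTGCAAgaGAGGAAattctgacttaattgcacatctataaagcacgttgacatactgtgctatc
Clec7a, chr6:129472780-129473029: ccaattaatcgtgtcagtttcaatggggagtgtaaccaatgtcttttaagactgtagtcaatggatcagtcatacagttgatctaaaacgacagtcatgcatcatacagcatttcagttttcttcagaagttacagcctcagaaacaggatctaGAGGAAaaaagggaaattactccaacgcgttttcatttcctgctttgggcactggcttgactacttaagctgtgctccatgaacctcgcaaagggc
The Card9 window held 0 matches to the 4 motifs, the Clec4e window held 2 PU.1 cores and 1 C/EBP motif that did not overlap, and the Clec7a window held 1 PU.1 core. Of the windows not printed, those of Clec4d and Trem1 held 1 PU.1 core each, Syk held 0 PU.1 cores in 1 of its windows and 1 in the other, and Bcl10 held 0 PU.1 cores and 1 kappaB motif. A match is a run of letters, not a bound site, and the absence of one says only that these letters are not in the window.

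In GRCm38, Clec4n (chromosome 6, 123229843 to 123247021, plus strand), Clec4d (123262111 to 123275265, plus) and Clec4e (123281789 to 123289870, minus) lie next to one another, and Clec7a lies farther along the same chromosome (129461591 to 129472779, minus). Card9 lies on chromosome 2 (26352176 to 26360918, minus), Trem1 on 17 (48232768 to 48246924, plus), Syk on 13 (52583173 to 52648792, plus), Bcl10 on 3 (145922804 to 145934356, plus) and Malt1 on 18. Card9 overlaps Gm13562 on the opposite strand, which averaged 1.23 CPM (counts per mega of library total) over all libraries. Whether the counting used strand is unknown (not given in the sources used here). It is therefore also unknown whether reads from the overlap of that pair were told apart.

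Each library held between 16.4 and 27.8 M counts (mega), and no pair of libraries held identical values. The renal transcription factor Pax8 was at 37.1 to 65.8 CPM in Renca and at most 0.0898 CPM in AB1. The 4 mesothelium markers used summed to 0.219 to 8.89 CPM in AB1. The AB1 medians of Wt1 were 1.42 CPM (responders) and 1.37 CPM (the other group), its highest value was 7.86 CPM, and it was the marker of the 4 that passed the filter (log2 difference from Renca 1.46). Upk3b, Lrrn4 and Krt19 had group medians of at most 0.109 CPM in AB1 and reached at most 1.9 CPM. AB1 non-responder 3 stood apart with 733 CPM of summed skin markers, against a median of 9.41 CPM in its group. Without AB1 non-responders 3 and 7, the calls of all 9 genes in AB1 were as with them. A gene was called when edgeR's quasi-likelihood test gave an adjusted p under 0.05 over all genes tested.

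**Figure D1:**
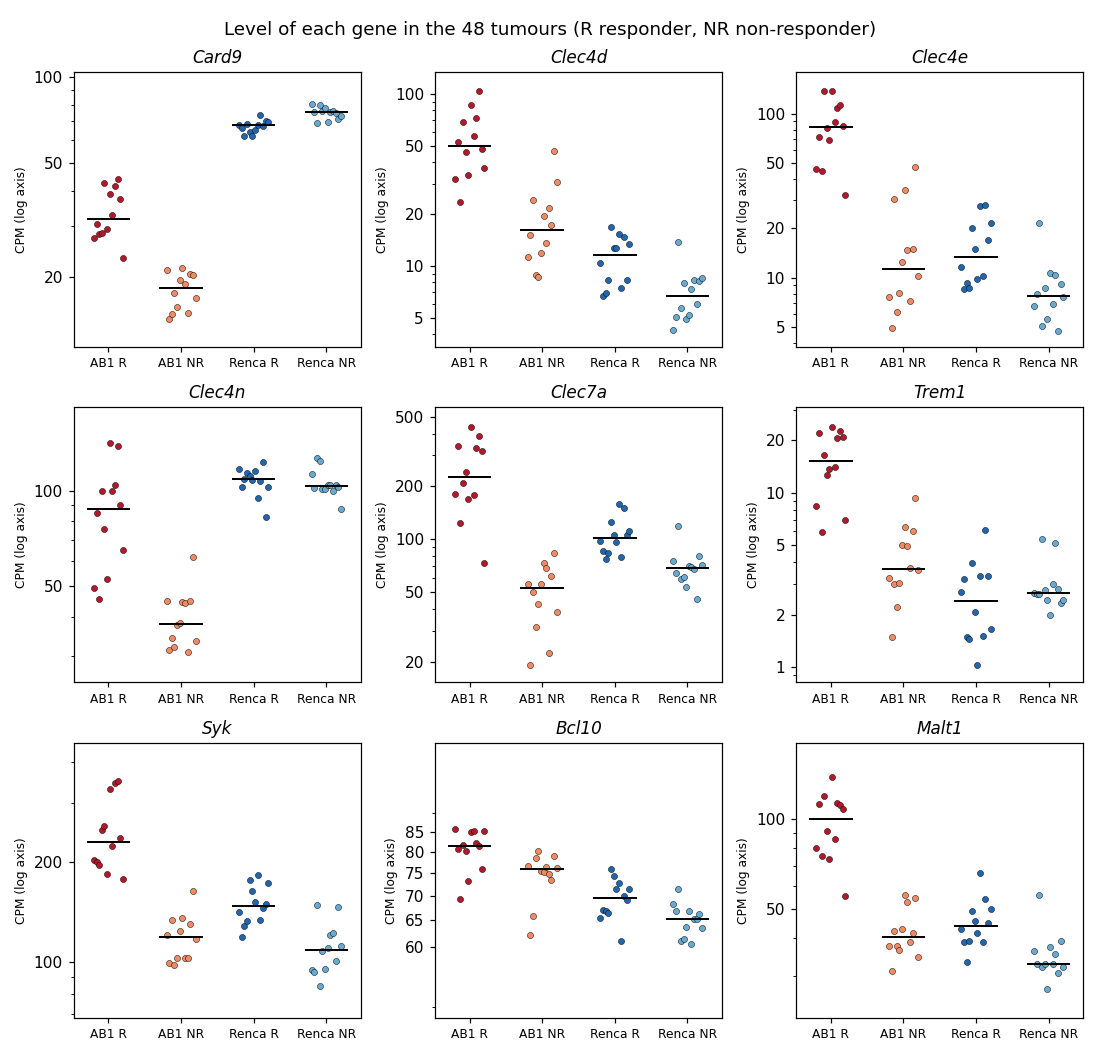
Level of each of the 9 genes in every tumour, in CPM on a log axis, with 1 point per tumour and a line at the group median (12 tumours per group). Card9 of AB1 responders lay above that of every AB1 non-responder, and Card9 was highest in Renca.

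Card9 differed between the tumours more than between the response groups, and the response groups ran in opposite directions in AB1 and Renca. In AB1 responders Card9 ran from 23.2 CPM through a median of 31.7 to 43.9 CPM, and in AB1 non-responders from 14.2 through 18.2 to 21.5 CPM. The lowest responder, replicate 12, was above the highest non-responder, replicate 7, so the groups did not overlap. In Renca responders it ran from 62 through 67.7 to 73.9 CPM and in non-responders from 69.2 through 75.4 to 80.2 CPM. The Renca groups overlapped, but 0 of 12 responders exceeded the non-responder median.

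The log2 fold change of Card9, responders against non-responders, was 0.95 ± 0.10 in AB1 (SE, edgeR adjusted p = 4.03e-07, n = 12 per group), a 1.94-fold rise. In Renca it fell by 0.16 on the log2 scale (SE 0.03, edgeR adjusted p = 0.00351, n = 12 per group), which made it 1.11-fold lower in responders. The Renca change passed the threshold with both flow cells together and on neither alone. It was -0.23 on the first flow cell alone (edgeR adjusted p = 0.135) and -0.08 on the second (adjusted p = 0.209), 6 libraries of each group apiece. With the RNA purity ratios as covariates it was -0.14 (adjusted p = 0.0554). All 4 renal tubule markers tested were also lower in Renca responders (median log2 fold change -0.26), their summed level running from 206 to 355 CPM in responders and 311 to 470 CPM in non-responders. Within the Renca groups, Card9 had r = 0.302 and rho = 0.231 with the mean level of the renal markers (adjusted permutation p = 0.182 and 0.306). The part of these markers in the response effect of Card9 was not tested. The response effects of Card9 differed by 1.14 ± 0.11 between the tumours (edgeR interaction term, adjusted p = 1.03e-09).

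All 9 genes were higher in AB1 responders, where 27.7% of the 15859 genes tested were called higher and 32.7% lower. Their median log2 fold change was 1.25 and ranged from 0.16 to 2.44, beside a median of -0.04 over all genes tested. In Renca 6 of the 9 were called higher, Card9 alone was called lower, and Clec4n and Trem1 were not called. Of the 15778 genes tested in Renca, 11.1% were called higher and 8.52% lower, and the 9 genes had a median log2 fold change of 0.36 beside -0.01 over all genes. Card9 and Syk were the genes of the 9 whose AB1 groups did not overlap, as 2.01% of all genes tested did with every responder above every non-responder. Since the genes were proposed with earlier results of these data in view, nothing is read from these shares. On the first Renca flow cell alone, or with the RNA purity ratios as covariates, 0 of the 9 were called in Renca. In whole tumours, fewer cells of a type and less RNA per cell cannot be told apart.

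**Figure D2:**
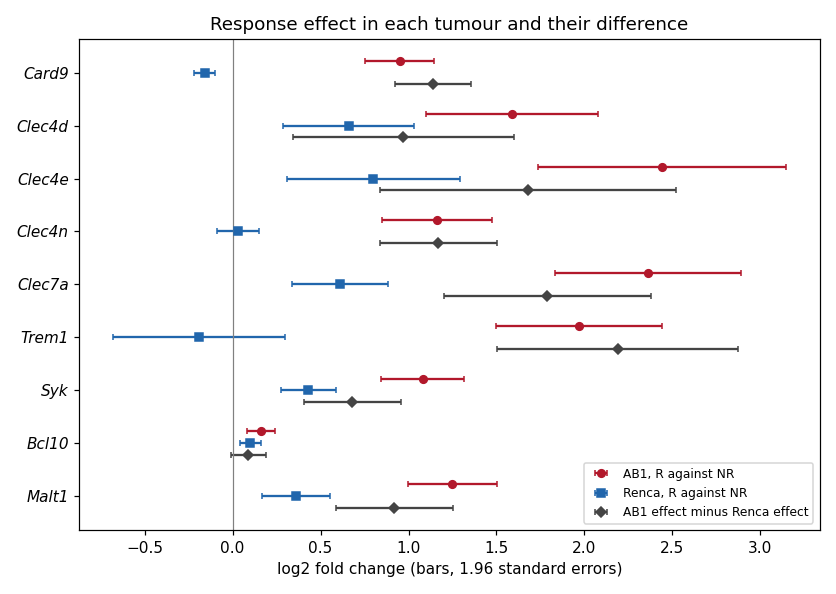
Log2 fold change of responders against non-responders in AB1 (circles) and Renca (squares) and the difference of the 2 effects (diamonds), with bars of 1.96 standard errors. Card9 is at 0.95 in AB1 and -0.16 in Renca, and Bcl10 is near 0 in every comparison.

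Among the receptors, Clec4e, which makes the glycolipid receptor Mincle, had the highest fold change in AB1, although Clec7a at 2.36 on the log2 scale lay within 1 standard error of it. It ran from 32.2 through a median of 83.5 to 139 CPM in AB1 responders and from 4.95 through 11.3 to 47.1 CPM in AB1 non-responders. Non-responder 11 was the highest of its group and non-responder 7 the next at 34.1 CPM, and 9 of 12 responders lay above both. The log2 fold change was 2.44 ± 0.36 (edgeR adjusted p = 4.95e-06).

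Renca held less Clec4e, from 8.48 through 13.3 to 27.6 CPM in responders and from 4.73 through 7.77 to 21.7 CPM in non-responders. Non-responder 3 was the highest of its group, with the next at 10.7 CPM, and all 12 responders exceeded the non-responder median. Its Renca log2 fold change was 0.80 ± 0.25 (edgeR adjusted p = 0.0262). Without Renca responder 5 it missed the threshold (edgeR adjusted p = 0.0554). The AB1 effect of Clec4e was larger than the Renca effect by 1.68 (edgeR adjusted p = 0.0017).

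Clec7a, the beta-glucan receptor, was the most abundant receptor of the list in AB1 responders per kilobase of exon, at 94.3 ± 42.4 CPM per kb (SD, n = 12), although Clec4n at 61.4 ± 22.3 lay within 1 SD of it. Its level in AB1 ran from 73.6 through 225 to 434 CPM in responders and from 19.1 through 52.6 to 82.9 CPM in non-responders. Only responder 12 lay within the non-responder range, and the next lowest responder was at 123 CPM. In AB1 it rose by 2.36 ± 0.27 on the log2 scale (edgeR adjusted p = 5.07e-07).

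In Renca, Clec7a ran from 77.6 through 101 to 159 CPM in responders and from 45.7 through 68.4 to 119 CPM in non-responders. Non-responder 3 was again the highest of its group, and 10 of 12 non-responders lay below every responder. Clec7a rose by 0.61 ± 0.14 on the log2 scale in Renca (edgeR adjusted p = 0.00488), smaller than in AB1 by 1.79 (edgeR adjusted p = 7.09e-06).

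Clec4d, a receptor that pairs with Mincle, ran from 23.5 through 49.8 to 103 CPM in AB1 responders and from 8.61 through 16.2 to 46.6 CPM in AB1 non-responders. In Renca it ran from 6.67 through 11.6 to 16.7 CPM in responders and from 4.23 through 6.66 to 13.8 CPM in non-responders. The groups of both tumours overlapped, with AB1 non-responder 11 and Renca non-responder 3 highest among non-responders. The log2 fold changes were 1.59 ± 0.25 in AB1 (edgeR adjusted p = 1.28e-05) and 0.66 ± 0.19 in Renca (adjusted p = 0.0171). They differed by 0.97 (edgeR adjusted p = 0.0122).

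Clec4n, which makes the mannan receptor Dectin-2, rose in AB1 responders and was not called in Renca. It ran from 45.6 through 87.4 to 141 CPM in AB1 responders and from 31 through 37.9 to 61.7 CPM in AB1 non-responders. In Renca it ran from 82.4 through 109 to 123 CPM in responders and from 87.5 through 104 to 127 CPM in non-responders, and 8 of 12 responders passed the median of the non-responders. The AB1 groups overlapped through 1 non-responder, replicate 11, and the Renca groups overlapped almost completely. Its log2 fold change was 1.16 ± 0.16 in AB1 (edgeR adjusted p = 3.28e-06) and 0.03 ± 0.06 in Renca (adjusted p = 0.788, 95% interval -0.08 to 0.13).

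Trem1, an amplifier of inflammatory signalling, was the least abundant of the 9 genes in CPM, with 21 to 544 counts per library. It ran from 5.97 through 15.2 to 23.8 CPM in AB1 responders and from 1.48 through 3.65 to 9.38 CPM in AB1 non-responders. In Renca it ran from 1.02 through 2.39 to 6.11 CPM in responders and from 2 through 2.65 to 5.46 CPM in non-responders. Responders 3 and 12 were the lowest responders in AB1, and 9 of 12 lay above every non-responder, whereas the Renca groups overlapped and 6 of 12 responders passed their non-responder median.

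The log2 fold change of Trem1 was 1.97 ± 0.24 in AB1 (edgeR adjusted p = 7.82e-07). In Renca it was -0.19 ± 0.25 (edgeR adjusted p = 0.631), with a 95% interval of -0.67 to 0.30. The 2 effects differed by 2.19 ± 0.35 (edgeR adjusted p = 3.89e-06), the widest gap among the 9 genes. Its 95% interval, 1.5 to 2.88, overlapped that of the Clec7a gap, 1.21 to 2.37.

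The kinase Syk, which docks on the phosphorylated receptor tails, did not overlap between the AB1 groups. It ran from 178 through 230 to 351 CPM in AB1 responders and from 97.9 through 119 to 164 CPM in AB1 non-responders. In Renca it ran from 119 through 147 to 183 CPM in responders and from 85 through 109 to 148 CPM in non-responders, and all 12 responders passed the median of the non-responders. The log2 fold changes were 1.08 ± 0.12 (edgeR adjusted p = 4.22e-07) and 0.43 ± 0.08 (adjusted p = 0.0032). They differed by 0.68 (edgeR adjusted p = 0.000167).

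Malt1, the protease of the complex, ran from 55.5 through 99.7 to 138 CPM in AB1 responders and from 31.1 through 40.3 to 56 CPM in AB1 non-responders, where the highest non-responder passed only the lowest responder. In Renca it ran from 33.4 through 44 to 66.2 CPM in responders and from 27.2 through 33 to 55.8 CPM in non-responders. Renca non-responder 3 was far above the next of its group, at 39.3 CPM. The log2 fold changes were 1.25 ± 0.13 in AB1 (edgeR adjusted p = 3.94e-07) and 0.36 ± 0.10 in Renca (adjusted p = 0.0184), and they differed by 0.92 (adjusted p = 2.19e-05).

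Bcl10, the scaffold between Card9 and Malt1, moved least of the 9 genes in AB1. In Renca, Clec4n moved less than Bcl10, at 0.03 ± 0.06 on the log2 scale. Bcl10 ran from 69.3 through 81.6 to 85.8 CPM in AB1 responders and from 62.1 through 75.9 to 80.3 CPM in AB1 non-responders. In Renca it ran from 61.1 through 69.6 to 76 CPM in responders and from 60.4 through 65.2 to 71.5 CPM in non-responders. The groups of both tumours overlapped over most of their range, although 8 of 12 responders in AB1 and 3 of 12 in Renca lay above every non-responder. The standard deviation within a group was 4.98% to 7.18% of the mean. The log2 fold changes were 0.16 ± 0.04 in AB1 (edgeR adjusted p = 0.00309) and 0.10 ± 0.03 in Renca (adjusted p = 0.0427). In AB1 the call was lost on the first flow cell alone (edgeR adjusted p = 0.0943). The Renca call was lost without the filter on low counts (edgeR adjusted p = 0.073) and with the RNA purity ratios as covariates (adjusted p = 0.27). With sequencing lane as a term it was also lost (edgeR adjusted p = 0.0734) and 5 genes of the list were called higher there in place of 6. Leaving out 1 library at a time ended the Renca call in 12 of 24 fits.

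Over the 48 libraries, the AB1 effect was larger than the Renca effect for 8 of the 9 genes, and Bcl10 was not called (0.09, edgeR adjusted p = 0.138). Of the 16920 genes tested for this difference, 22.9% had a larger effect in AB1 and 18.6% a smaller one. Which of these shares was the larger depended on the scaling, the filter and the AB1 libraries used. The gap was positive for all 9 genes under each scaling tried.

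Scaled by exon length, the complex parts stood in different order in the tumours. Per kilobase of exon, Card9 averaged 14.7 ± 3.01 CPM per kb in responders of AB1 and 7.83 ± 1.15 in its non-responders, below Bcl10 at 17.6 ± 1.14 and 16.3 ± 1.17 (SD, n = 12 each). In Renca the order was turned, with Card9 at 29.2 ± 1.51 CPM per kb in responders and 32.7 ± 1.57 in non-responders and Bcl10 at 15.2 ± 0.918 and 14.2 ± 0.709. Card9 and Bcl10 of AB1 responders lay within 1 SD of Card9 of each other, while the other 3 gaps were wider than the spread of either gene. Malt1 was lower per kilobase than both in every group, at 1.97 to 5.37 CPM per kb on average. The divisors join all annotated exons, 2.29 kb for Card9, 4.56 kb for Bcl10 and 18.04 kb for Malt1, and the order depends on them. In mean CPM, AB1 responders had Malt1 at 96.9, Bcl10 at 80.6 and Card9 at 33.7. Card9 and Bcl10 averaged 67 and 69.3 CPM in Renca responders, and 74.9 and 65 in Renca non-responders. Trem1 had the lowest mean of the receptors per kilobase in all 4 groups. In AB1 it was at 5.23 ± 2.13 CPM per kb in responders and 1.45 ± 0.725 in non-responders. In Renca it was at 0.884 ± 0.482 CPM per kb in responders and 1.01 ± 0.366 in non-responders, and these Renca values do not differ beyond their spread.

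Compared directly with response as a term, Card9 was 2.85-fold higher in Renca than in AB1 (log2 difference, AB1 minus Renca, -1.51 ± 0.10, edgeR adjusted p = 1.79e-19). The gap was -2.07 among non-responders alone and -0.98 among responders alone. Clec4n was also higher in Renca, by 1.79-fold (log2 difference -0.84 ± 0.12, edgeR adjusted p = 3.45e-08). The genes higher in AB1 were Clec4d (1.89 ± 0.18), Clec4e (1.71 ± 0.25), Trem1 (1.56 ± 0.25), Malt1 (0.69 ± 0.10), Syk (0.42 ± 0.09) and Bcl10 (0.22 ± 0.03), all log2 differences with their standard errors. Clec7a was not called (0.39 ± 0.20, edgeR adjusted p = 0.068) and took opposite signs in the groups, at -0.47 among non-responders and 1.23 among responders. With both response groups, 6 of the 9 were higher in AB1 and 2 higher in Renca. Among non-responders alone these counts were 4 and 3, and among responders alone 7 and 1. Trem1 (0.51, edgeR adjusted p = 0.0571) and Syk (0.10, adjusted p = 0.37) were not called among non-responders, nor was Clec4n among responders (-0.29, adjusted p = 0.0831). The log2 differences among responders were 2.46 for Clec4e (0.92 among non-responders), 2.31 for Clec4d (1.43), 1.10 for Malt1 (0.25), 2.57 for Trem1 and 0.73 for Syk. Clec4n was at -1.41 among non-responders. Of all genes tested, 16258 in number, 42.2% were called higher in AB1 and 39.3% higher in Renca. Tumour line, day of removal and flow cell cannot be told apart in this comparison.

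Within the groups, tumours with more Card9 also had more of most of the other 8 genes in AB1 but not in Renca. For this, each library's log2 CPM was taken as its deviation from the mean of its group and flow cell, so that the response itself was removed. Over the 24 AB1 libraries Card9 correlated with Clec7a (Pearson r = 0.79, Spearman rho = 0.785, adjusted permutation p = 0.0016 and 0.00104), Syk (r = 0.717, rho = 0.676, adjusted permutation p = 0.00304 and 0.00548) and Trem1 (r = 0.654, rho = 0.667, adjusted permutation p = 0.00742 and 0.00512). It also correlated with Clec4n (r = 0.653, rho = 0.76, adjusted permutation p = 0.00742 and 0.00016) and Malt1 (r = 0.643, rho = 0.643, adjusted permutation p = 0.00848 and 0.00608). Without the 2 libraries farthest from the Card9 median these 5 correlations were 0.6 to 0.767 and all passed. Over 10928 genes compared, the 95th percentile of r with Card9 in AB1 was 0.67. Clec7a and Syk lay above it, while Trem1, Clec4n and Malt1 lay below it. Whether the listed genes follow Card9 more closely than other genes do was not tested. P-values were adjusted over 16 relations, 8 genes in each of 2 tumours.

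Clec4e followed Card9 less closely in AB1 (r = 0.465, rho = 0.587, adjusted permutation p = 0.0328 and 0.00919), and without the 2 farthest libraries r was 0.361 and missed the threshold. Clec4d (r = 0.244, rho = 0.247, adjusted permutation p = 0.343 and 0.34) and Bcl10 (r = 0.191, rho = 0.177, adjusted permutation p = 0.44 and 0.498) did not pass in AB1.

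In Renca the correlations with Card9 were negative for 7 of the 8 genes, Trem1 being the exception (r = 0.204, rho = 0.152, adjusted permutation p = 0.422 and 0.55). Bcl10 had the strongest (r = -0.651, rho = -0.615, adjusted permutation p = 0.00742 and 0.00919), followed by Syk (r = -0.562, rho = -0.394, adjusted permutation p = 0.0297 and 0.11) and Clec4e (r = -0.56, rho = -0.472, adjusted permutation p = 0.0297 and 0.0625). Clec4d was at r = -0.531 (rho = -0.452, adjusted permutation p = 0.0328 and 0.0778) and Clec7a at r = -0.528 (rho = -0.415, adjusted permutation p = 0.0328 and 0.0972). Malt1 (r = -0.488, rho = -0.353, adjusted permutation p = 0.0581 and 0.148) and Clec4n (r = -0.16, rho = 0.0339, adjusted permutation p = 0.509 and 0.885) did not pass. Without the 2 libraries farthest from the Card9 median none of the 8 passed in Renca, so the calls rest on those libraries. The 7 correlations were still negative, from -0.49 for Bcl10 to -0.045 for Clec4n. By rho, Bcl10 was the only gene of the 8 that passed in Renca with all libraries.

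**Figure D3:**
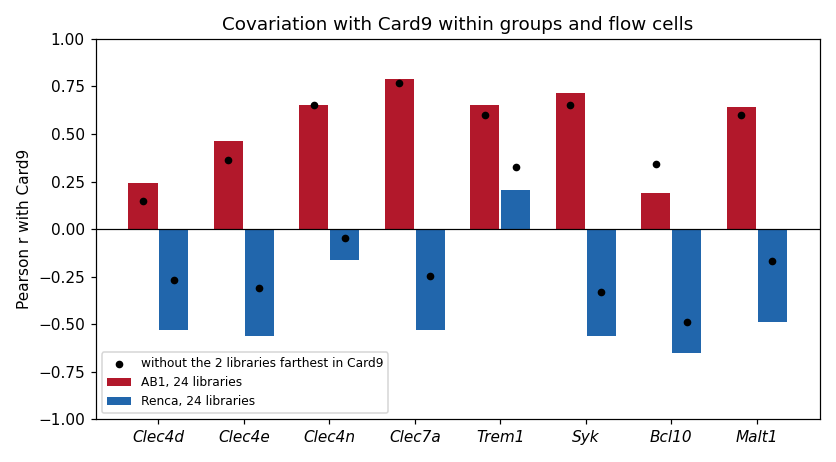
Pearson r of each gene with Card9 over the 24 libraries of each tumour, as deviations from group and flow cell means (bars), and without the 2 libraries farthest from the Card9 median (dots). AB1 bars are positive throughout and reach 0.79 for Clec7a, and the Renca bars shrink toward 0 without those libraries, except Trem1.

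Among the other 8 genes, all 28 pairs had positive r within groups. The median r was 0.702 in AB1 and 0.589 in Renca, a description with no test, and the pairs share their libraries. The neighbours Clec4d and Clec4e had r = 0.655 in AB1 and 0.751 in Renca. Among the 10 pairs of receptors the median was 0.704 in AB1 and 0.318 in Renca.

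The genes whose within-group pattern was most like that of Card9 differed between the tumours. In AB1 they included the myeloid kinase gene Fes (r = 0.898), Arrdc1 (0.893), Tmem268 (0.889) and the cation channel gene Trpv2 (0.881), among 10928 genes compared over 24 libraries. In Renca they were the splicing factor gene Srrm1 (0.852), Syde2 (0.804), the carbonic anhydrase gene Car2 (0.802), the clock and replication gene Timeless (0.799) and the helicase gene Dhx9 (0.793). The 95th percentile of r with Card9 over the same genes was 0.67 in AB1 and 0.549 in Renca. The AB1 genes Fes, Arrdc1 and Trpv2 had r of -0.401, -0.379 and -0.38 in Renca, and Tmem268 had 0.291.

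Leukocyte transcripts rose with all 9 genes in AB1 responders, but in Renca responders Card9 was lower and Clec4n and Trem1 were not called. All 9 pan-leukocyte markers tested were higher in responders of both tumours, with a median log2 fold change of 1.21 in AB1 and 0.38 in Renca. In AB1 their summed level ran from 2490 to 5130 CPM in responders and 1320 to 2400 in non-responders, and in Renca from 1850 to 2950 and 1450 to 2280. Within groups, Card9 followed the mean log2 level of these markers in AB1 (r = 0.821, rho = 0.832, adjusted permutation p = 3e-05 for each, 0.812 without the 2 farthest libraries). The unadjusted permutation p behind it, 1e-05, is the smallest that 100000 resamples can give. In Renca Card9 ran against that level by r but did not pass by rho (r = -0.526, rho = -0.425, adjusted permutation p = 0.028 and 0.0813). Without the 2 farthest libraries r was -0.284 and missed the threshold (adjusted permutation p = 0.347). With the mean level of the renal markers Card9 had r = 0.302 and rho = 0.231 in Renca (adjusted permutation p = 0.182 and 0.306), and these p-values were adjusted over the 3 relations.

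**Figure D4:**
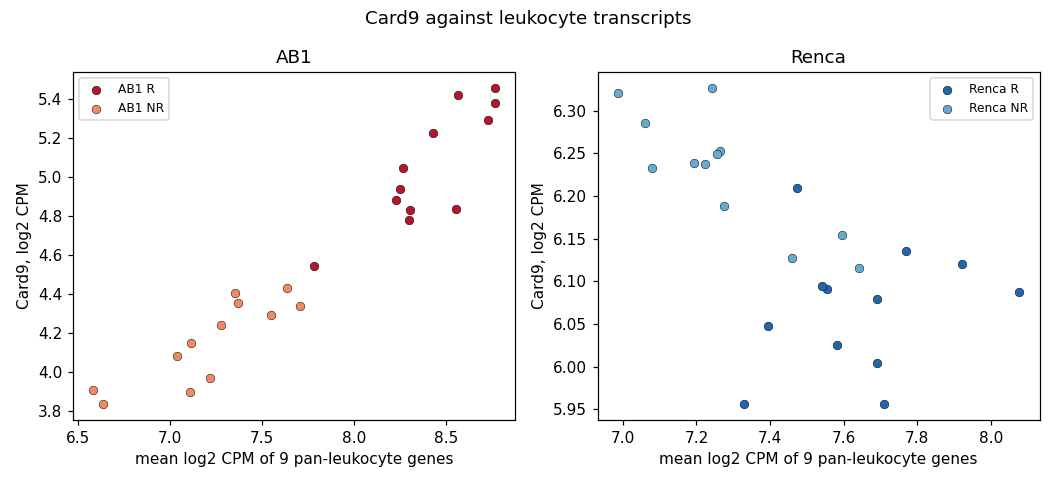
Card9 log2 CPM against the mean log2 CPM of 9 pan-leukocyte genes, 1 point per tumour, with AB1 on the left and Renca on the right and separate axis ranges. In AB1 both rise together within and across groups (within-group r = 0.821). In Renca the within-group r was -0.526, and without the 2 libraries farthest from the Card9 median it was -0.284 and missed the threshold.

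The markers of the cells that carry these receptors also differed. In AB1, 10 of 11 monocyte and macrophage markers were higher in responders and 1 lower, their summed level running from 3390 to 6190 CPM in responders and 1900 to 3450 in non-responders. In Renca 6 of 11 were higher, at 3490 to 4740 and 2940 to 3940 CPM. Of the neutrophil markers 9 of 10 were higher and 1 lower in AB1, and 3 of 9 were higher in Renca. The neutrophil sums of the AB1 groups overlapped, at 468 to 1680 CPM in responders and 501 to 1630 in non-responders, and the gelatinase gene Mmp9 made up much of them, with a median of 299 CPM in responders and 1010 in non-responders. The receptor gene Csf3r, by contrast, had medians of 257 and 58.6 CPM. In Renca the neutrophil sums were 177 to 255 CPM in responders and 144 to 195 in non-responders. Mxd1 and Csf3r made up most of them, with medians of 100 and 64.8 CPM in responders and 97.7 and 43.3 in non-responders. S100a8, S100a9, Cxcr2 and Mmp8 had Renca medians of at most 2.55 CPM. No marker of these lists was at 0 in every library of a group. The dendritic cell markers were higher in 8 of 8 in AB1 and 5 of 8 in Renca, and the T cell markers in 6 of 6 in both. B cell markers were higher in 1 of 6 in AB1 and 0 of 6 in Renca. Over all genes tested, 27.7% were called higher and 32.7% lower in AB1, and 11.1% and 8.52% in Renca.

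With the pan-leukocyte level as a covariate, 0 of the 9 genes and 0 of all genes were called by edgeR in either tumour, with 259 genes in AB1 and 476 in Renca at an unadjusted p under 0.05. That level correlated with response at r = 0.887 in AB1 and 0.688 in Renca. Card9 then stood at 0.13 ± 0.13 in AB1 and -0.11 ± 0.04 in Renca. With the neutrophil level as the covariate the counts of calls were also 0, with 1928 and 1363 genes at an unadjusted p under 0.05, and Card9 stood at 0.38 ± 0.14 and -0.12 ± 0.04. The neutrophil level also correlated with response, at r = 0.802 in AB1 and 0.657 in Renca.

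The rest of the pathway was read from 84 listed genes, of which 73 were in the table. In AB1 57 of the 71 tested were higher in responders and 4 lower, with a median log2 fold change of 0.78. In Renca 34 of 69 were higher and 0 lower, with a median of 0.25. The shares over all genes tested were 27.7% higher and 32.7% lower in AB1, and 11.1% and 8.52% in Renca. The lists were chosen with earlier results of these data known. Nothing is therefore read from these counts or from those of each list below. On the first Renca flow cell alone, or with the RNA purity ratios as covariates, none of the pathway genes named below was called in Renca. The difference of effects was called larger in AB1 for 44 of 72 and smaller for 1, the B cell linker gene Blnk, named after its value was seen. Over all genes tested for this difference the shares were 22.9% larger and 18.6% smaller.

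Of the other lectin receptors, 7 of 11 were higher in AB1 responders and 1 lower, and 5 of 10 were higher in Renca. Clec5a, a receptor coupled to the adaptor Dap12, had medians of 75.6 CPM in AB1 responders and 26.1 in non-responders (log2 fold change 1.51 ± 0.18, edgeR adjusted p = 5.83e-07). Clec12a, an inhibitory receptor for crystals, had close effects, 0.78 ± 0.16 in AB1 and 0.79 ± 0.16 in Renca (edgeR adjusted p = 0.000171 and 0.00328). Clec9a, the dead-cell receptor of cross-presenting dendritic cells, had 1.09 ± 0.15 and 0.57 ± 0.18 (edgeR adjusted p = 2.38e-06 and 0.025). The receptor lower in AB1 responders was Cd209a (-0.97 ± 0.31, edgeR adjusted p = 0.0102), picked out after its value was seen.

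Of the 5 Trem1 relatives listed, 2 were found and tested. Treml4 rose in both tumours (log2 fold changes 1.69 ± 0.23 and 0.65 ± 0.13, edgeR adjusted p = 2.76e-06 and 0.0032). Trem2, a lipid receptor of macrophages, was at -0.03 ± 0.12 in AB1 (edgeR adjusted p = 0.828), where its medians were 59.2 CPM in responders and 58.3 in non-responders. In Renca it was at 0.13 ± 0.04 (edgeR adjusted p = 0.04), a call that ended in 11 of the 24 fits made without 1 library.

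All 3 receptor adaptors rose in both tumours. Fcer1g, the common partner of Mincle and Dectin-2, had medians of 376 and 143 CPM in the AB1 groups (log2 fold change 1.32 ± 0.15, edgeR adjusted p = 5.85e-07) and 165 and 125 CPM in Renca (0.38 ± 0.09, adjusted p = 0.0052). Tyrobp, the partner of Trem1, rose by 1.07 ± 0.12 in AB1 and by 0.40 ± 0.08 in Renca, on the log2 scale (edgeR adjusted p = 4.56e-07 and 0.0032). In Renca, Fcer1g was called higher in responders while Dectin-2's own gene Clec4n was not called.

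Of the proximal signalling genes, 12 of 16 were higher and 3 lower in AB1, and 9 of 16 were higher in Renca. Prkcd, the kinase that acts on Card9, had 0.92 ± 0.11 in AB1 and 0.25 ± 0.07 in Renca (edgeR adjusted p = 6.68e-07 and 0.018). Plcg2, a phospholipase downstream of Syk, had 1.15 ± 0.12 and 0.15 ± 0.04 (edgeR adjusted p = 3.94e-07 and 0.00819). The phosphatase gene Ptpn6 rose by 1.46 ± 0.16 in AB1 and 0.43 ± 0.10 in Renca (edgeR adjusted p = 4.03e-07 and 0.00567).

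Of the relatives of the Card9 complex, 6 of 9 were higher in AB1 and 1 of 9 in Renca. Casp8 had 0.40 ± 0.05 in AB1 and 0.06 ± 0.03 in Renca, the latter not called (edgeR adjusted p = 2.46e-06 and 0.118).

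The NF-kappaB core list held 12 genes, of which 9 were found and tested, while Nfkb2, Nfkbia and Nfkbie were not found by symbol. All 9 tested were higher in AB1 and 4 of 9 in Renca. Ikbkb, a kinase of the inhibitor complex, rose by 0.57 ± 0.07 in AB1 and stood at 0.07 ± 0.03 in Renca (edgeR adjusted p = 6.65e-07 and 0.113). Nfkbiz, a nuclear co-regulator induced by NF-kappaB, rose by 0.75 ± 0.14 and 0.53 ± 0.14 (edgeR adjusted p = 0.000125 and 0.0099). Of the proteins that Malt1 cuts, 5 of 6 genes were higher in AB1 and 4 of 6 in Renca. Tnfaip3, a brake on NF-kappaB, rose by 1.27 ± 0.16 and 0.76 ± 0.21 (edgeR adjusted p = 1.04e-06 and 0.0159), and Cyld, a deubiquitinase, by 0.70 ± 0.09 and 0.14 ± 0.03 (adjusted p = 1.09e-06 and 0.00705).

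Of the cytokines and mediators that Card9 signalling is known to induce, 14 of 15 were higher in AB1 and 6 of 14 in Renca, and their medians were 2 and 0.61 on the log2 scale. Cxcl1, a neutrophil chemokine, ran from 11 through 61 to 106 CPM in AB1 responders and from 3.13 through 7.53 to 21.7 CPM in AB1 non-responders, groups that overlapped. Its log2 fold change was 2.78 ± 0.33 in AB1 (edgeR adjusted p = 6.46e-07) and 0.25 ± 0.21 in Renca (adjusted p = 0.427). Nlrp3, an inflammasome sensor, had 1.96 ± 0.24 in AB1 (edgeR adjusted p = 7.44e-07) and 0.40 ± 0.14 in Renca (adjusted p = 0.0433), the latter lost in 15 of 24 fits without 1 library and with sequencing lane as a term (adjusted p = 0.0661).

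The chemokine gene Ccl4 and the inhibitory cytokine gene Il10 were called in both tumours. Ccl4 rose by 2.14 ± 0.34 in AB1 and 1.26 ± 0.27 in Renca (edgeR adjusted p = 1.2e-05 and 0.00395). Il10 rose by 1.08 ± 0.25 and 1.04 ± 0.23 (edgeR adjusted p = 0.000642 and 0.0047). The levels of Il10 were low, with medians from 1.43 CPM in Renca non-responders to 4.68 CPM in AB1 responders.

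**Figure D5:**
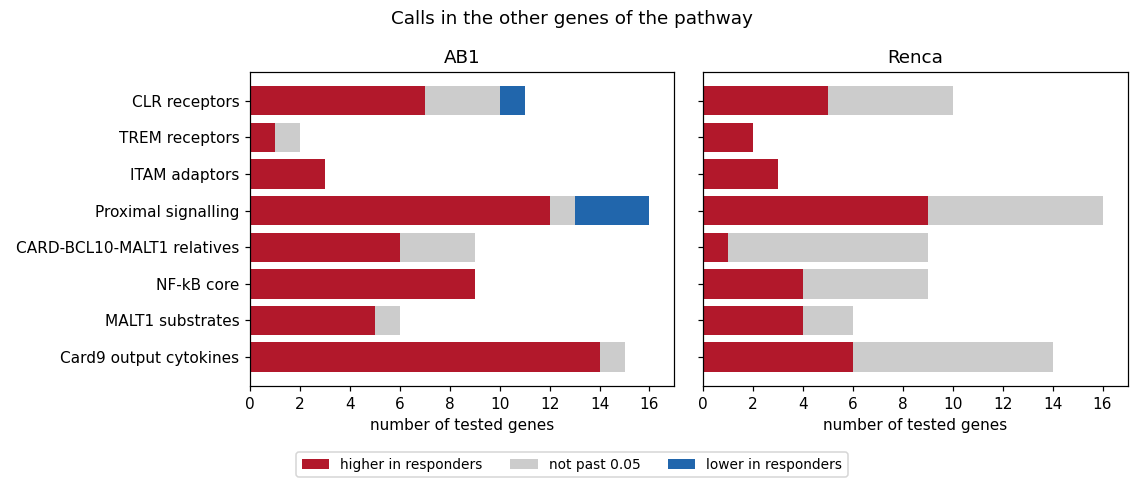
Number of tested genes of each pathway list that were called higher in responders, lower, or not called at an adjusted p of 0.05, in AB1 (left) and Renca (right). Of the 12 NF-kappaB core genes listed, 9 were tested. All 9 were called higher in AB1, against 4 of 9 in Renca, beside 27.7% and 11.1% of all genes tested.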

How the data were processed

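Per the file headers and values, the authors deposited a table of unnormalised whole-number counts, 1 row a gene, for 48 libraries. Per the submitters' processing notes, the tools were StringTie 1.3.0, HISAT2 2.0.4 and bcl2fastq 2.18.0.12, with no role or order given. The notes name human builds although the gene identifiers are mouse, while the counting tool, the annotation and the use of strand were not given in the sources used here. Coordinates and exon lengths came from GENCODE M21 (GRCm38), which 39461 of 39637 identifiers matched, and 8466 genes had no count. Promoter sequences came from RefSeq.

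Each tumour was fitted alone with edgeR 4.0.16 in R 4.3.3 (TMM, filterByExpr, quasi-likelihood F test, Benjamini-Hochberg at 0.05 over all genes tested), with flow cell as a term. The difference of effects was an interaction over 48 libraries with 4 flow cells. The standard error is the log2 fold change over the square root of F. CPM shares 1 TMM scale. Correlations used log2 CPM (prior count 2) and 100000 permutations within group and flow cell. The scripts were tested on simulated data.

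The genes and lists were chosen with earlier results of these data known. Named pathway genes were the 2 of smallest p per list in each tumour, plus fixed genes that include Fcer1g, Tyrobp, Prkcd and Plcg2. The 5 genes most like Card9 had a mean log2 CPM of at least 1. Some genes that these rules took are not reported here, while counts over lists include them. The relations of Card9 to leukocyte and renal marker levels were added after the data were seen. Alternatives included other scaling, DESeq2 1.42.0, no filter, the replicate block, sequencing lane (added after the data were seen), single flow cells, RNA purity and cell content covariates, and leaving out libraries. At 16.4 to 27.8 M counts, the gene with fewest counts, Trem1, had 21 in its lowest library.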

Additional observations from a re-analysis of the deposited data

Results flagged for a closer look

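The response effect differed between AB1 and Renca by the interaction test for 8 of the 9 genes. The AB1 minus Renca differences in log2 fold change were 1.14 for Card9, 0.97 for Clec4d, 1.68 for Clec4e, 1.17 for Clec4n, 1.79 for Clec7a, 2.19 for Trem1, 0.68 for Syk and 0.92 for Malt1. For Card9 the effects had opposite signs and both were called.

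Among the 24 other named pathway genes the difference was called for 17. These were taken for small p in a response comparison, so the count is over selected genes. Over the whole pathway list 44 of 72 genes were called larger in AB1, and over all genes tested 22.9%. The difference was 0.97 for Fcer1g and 0.71 for Tyrobp among the adaptors, and 1.36 for Clec5a, 0.74 for Clec4a3 and 1.07 for Treml4 among the receptors. In proximal signalling it was 0.71 for Prkcd, 1.03 for Plcg2 and 1.06 for Ptpn6. Casp8 was at 0.37 and Tab2 at 0.33 among the relatives of the Card9 complex. Ikbkb was at 0.53, Nfkbib at 0.47 and Relb at 0.42 in the NF-kappaB core, and Zc3h12a and Cyld at 0.6 among the Malt1 substrates. Cxcl1 was at 2.57 and Nlrp3 at 1.6 among the mediators.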

How the results depend on the processing

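All 9 genes stayed higher in AB1 under 9 of the 12 alternatives, while 8 were called on the first flow cell alone and 0 with either cell content covariate. The cause of each shift below was not tested, except that single flow cells hold fewer libraries. On the first flow cell alone 2795 genes were called lower in AB1, and in Renca 0 genes of the list and 0 of all genes were called in either direction by edgeR (2803 genes at an unadjusted p under 0.05). The second flow cell alone called 874 genes higher and 379 lower in Renca, with 5 of the list higher and 0 lower. The RNA purity covariates left 115 higher and 88 lower in Renca and 0 of the list. Without the filter 840 genes were lower in Renca. The pan-leukocyte or neutrophil covariate left 0 calls of any kind. With sequencing lane as a term, chosen after seeing the data, 5 genes of the list were called higher in Renca (Bcl10 at an adjusted p of 0.0734), and Nlrp3 and Zc3h12a were not called there (0.0661 and 0.0563). The replicate numbers were not treated as pairs: same-numbered libraries shared a lane, but 4 numbers shared 1 lane in each tumour, and their deviations correlated from -0.0913 to 0.515 in AB1 and -0.126 to 0.261 in Renca. In each tumour 2 of 12 responders correlated best with their own number. The replicate block gave 5 genes of the list higher in Renca (Bcl10 at an adjusted p of 0.0946), with Trem2, Nlrp3 and Zc3h12a at 0.0539, 0.0923 and 0.0825. Among responders alone 1 gene of the list was higher in Renca. The split of the difference of effects over all genes turned from 3877 larger and 3155 smaller to 2839 and 4069 without the filter. It turned to 3452 and 3808 with RLE scaling and to 3571 and 3873 with DESeq2. Without AB1 non-responders 3 and 7 it was 3489 and 4771, and without AB1 responder 3 it was 3062 and 4359.

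Leaving out 1 library kept 9 calls of the list in AB1 (genes higher 4257 to 4942, lower 4618 to 5480), 4 to 6 higher and 1 lower in Renca (genes 1455 to 2159 and 793 to 1795) and 8 in the difference (3062 to 4209 and 2972 to 4359). Signs that turned in these fits belonged to values that were not called, Trem2 in AB1 (-0.06 to 0.04), Clec4n in Renca (0 to 0.05), and the differences of Clec12a (-0.11 to 0.1) and Il10 (-0.07 to 0.29).

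Without the 2 farthest libraries the correlation with Card9 missed the threshold for Clec4e in AB1 (0.361) and, in Renca, for Bcl10 (-0.49), Clec4d (-0.269), Clec4e (-0.311), Clec7a (-0.245) and Syk (-0.331).

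Signs turned for the log2 difference of Clec12a (-0.01 with RLE, DESeq2 or without AB1 non-responders 3 and 7, -0.05 without the filter, -0.06 with the replicate block, -0.02 with lane, 0 without the flow cell term), for Trem2 in AB1 with RNA purity (0.02), for Clec7a between tumours among non-responders (-0.47), and on the first Renca flow cell for Clec4n (-0.01), Cxcl1 (-0.03) and Ikbkb (0). With the neutrophil covariate in Renca they turned for Clec4e (-0.02), Clec4n (-0.01), Clec5a (-0.01), Cxcl1 (-0.32), Nlrp3 (-0.08) and Zc3h12a (-0.07). With the pan-leukocyte covariate they turned in AB1 for Ccl4 (-0.38), Clec12a (-0.09), Clec4a3 (-0.15), Clec9a (-0.05), Fcer1g (-0.05), Nfkbiz (-0.07), Prkcd (-0.07), Relb (-0.05) and Treml4 (-0.07). In Renca they turned for Bcl10 (-0.01), Clec4e (-0.19), Clec5a (-0.08), Clec9a (-0.08), Cxcl1 (-0.15), Ikbkb (-0.01), Malt1 (-0.09), Nlrp3 (-0.04), Prkcd (-0.02), Ptpn6 (-0.02), Tnfaip3 (-0.05), Trem2 (-0.01) and Zc3h12a (-0.09).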
